A study of Mus musculus with 6 samples.

Results

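A set of 10 genes of the ATF4 stress response and of serine synthesis was followed in SL4 cells with and without SEMA6A overexpression. They are Atf4, Ddit3, Trib3, Phgdh, Psat1, Shmt2, Asns, Slc7a11, Chac1 and Sesn2, chosen by name from a list with earlier results of these data known. They were matched to the gene names of the deposited expression table. All 10 were found among its 53700 listed gene identifiers, and all 10 were among the 12510 genes that passed the filter of a mean of at least 1 TPM. Each of them was above that filter in both groups.

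SL4 is a mouse colorectal cancer (CRC) cell line that carries luciferase. Poly-A mRNA was sequenced from 3 libraries of SL4 cells without SEMA6A overexpression (pLV-Control) and from 3 libraries of SL4 cells made to overexpress SEMA6A stably with a lentivirus (pLV-SEMA6A). The sources used here do not say whether the pLV-Control cells carried an empty virus, whether the pLV-SEMA6A line was 1 clone, or whether the 3 libraries of a group came from separate cultures. The p-values therefore measure only the spread between these libraries, which may be technical, and SEMA6A cannot be told apart from any other difference between the cell lines. In such bulk samples, fewer cells that express a gene and less RNA per cell cannot be told apart either.

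When amino acids run short, the endoplasmic reticulum holds misfolded proteins, or a virus is sensed, kinases phosphorylate the translation factor eIF2alpha. General protein synthesis then slows, while the mRNA of the transcription factor ATF4 is translated more efficiently. ATF4 acts with C/EBP proteins on genes for amino acid synthesis and uptake, for serine and glycine metabolism, for redox balance and, under long stress, for cell death. Because ATF4 is controlled to a large part at translation, its mRNA level is not a measure of its protein or its activity.

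Promoter sequences are shown for the genes in which a short match was found. Whether a match bears on the direction in which a gene changed was not tested. RefSeq promoters on GRCm38.p6, each from 250 bases before to 50 bases after an annotated start, were matched by symbol for all 10 genes (11 promoters, because Psat1 has 2). They were searched on both strands for TGATGNAA, the core of the C/EBP-ATF response element to which ATF4 binds. A match was present in 4 of the 11 promoters and in 3.97% of all 32851 promoters. In the sequences below the matched letters are in capitals, and each line reads 5′ to 3′ on the strand of the gene.
Slc7a11, chr3:50443628-50443704, minus strand: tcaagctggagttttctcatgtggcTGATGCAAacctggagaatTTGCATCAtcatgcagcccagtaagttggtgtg
Chac1, chr2:119351024-119351081, plus strand: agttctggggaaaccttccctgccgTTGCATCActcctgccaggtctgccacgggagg
Asns, chr6:7693210-7693257, minus strand: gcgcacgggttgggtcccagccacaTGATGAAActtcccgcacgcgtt
Trib3, chr2:152344028-152344057, minus strand: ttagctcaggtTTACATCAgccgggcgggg
Slc7a11 held 2 matches, which began 66 and 47 bases before the start and lay on opposite strands. The match began 193 bases before the start in Chac1, 23 bases before it in Asns, and at base 15 after it in Trib3. No match to these letters lay in the windows of Atf4, Ddit3, Phgdh, Psat1, Shmt2 or Sesn2. The letters of the antioxidant response element, TGACNNNGC, to which NRF2 binds, were found in 3 of the 11 promoters and in 12.4% of all promoters. The match began 53 bases before the start in Phgdh, 36 bases before it in Sesn2 and 172 bases before it in Asns. None was found in the windows of Atf4, Ddit3, Trib3, Psat1, Shmt2, Slc7a11 or Chac1. Of the genes with this match, Phgdh and Sesn2 rose, and Asns did not pass the test. Of those without it, Psat1 and Shmt2 rose, Ddit3, Trib3, Slc7a11 and Chac1 fell, and Atf4 did not pass. For the C/EBP-ATF core, Slc7a11, Chac1 and Trib3 fell with a match, and Asns did not pass. Without that match Phgdh, Psat1, Shmt2 and Sesn2 rose, Ddit3 fell, and Atf4 did not pass.
Phgdh, chr3:98339989-98340047, minus strand: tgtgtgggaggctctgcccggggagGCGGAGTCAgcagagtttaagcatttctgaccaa
Sesn2, chr4:132510459-132510517, minus strand: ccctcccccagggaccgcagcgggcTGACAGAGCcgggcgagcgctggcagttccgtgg
A match describes the letters of a window only. Neither motif overlapped the other in these promoters.

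Expression is given in TPM, a relative unit which corrects for transcript length and library total. Levels can therefore be compared between genes, with less certainty for a gene that shares sequence with others. The number of reads behind a value is unknown. Library totals over the listed genes lay between 977400 and 986444 TPM. Sema6a itself, the gene that checks the labels, was listed at 0 without SEMA6A overexpression and reached 98.7, 118 and 112 TPM with it. Of 14 colon epithelial markers 13 were below the filter in these cells, and the one above it, Lgals4, fell from 2.15 ± 0.32 to 0.36 ± 0.41 TPM (SD, n = 3 each, log2FC −1.24, limma adjusted p = 0.00760). Epcam, Cdx1 and Cdx2 were listed at 0 in every library, and the summed level of the 14 was at most 3.19 TPM in pLV-Control and 0.57 to 1.41 TPM in pLV-SEMA6A. The defining markers of the labelled tissue were thus nearly absent in both groups. Leukocyte markers summed to at most 0.84 TPM and endothelial markers to at most 0.56 TPM in any library, whereas 8 fibroblast markers summed to 126 to 143 TPM in pLV-Control and 184 to 189.9 TPM in pLV-SEMA6A, mostly Col3a1. Of these fibroblast markers 5 passed the filter, of which 2 were higher and 2 lower, while none of the 10 leukocyte and 5 endothelial markers passed it. The part of these markers in the results below was not tested. In pLV-SEMA6A replicate 2 the mitochondrial gene mt-Co3 had 0.33 TPM, where the other libraries had 140.6 TPM or more, and without that library the calls of the 10 genes below did not change.

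Of the 10 genes, 4 rose, 4 fell and 2 did not pass the test in pLV-SEMA6A cells. Phgdh, Psat1, Shmt2 and Sesn2 rose, by 24.9% to 46.7% of the mean TPM. Ddit3, Slc7a11, Chac1 and Trib3 fell, by 10.3% to 27.3%, of which Trib3 did not pass after the libraries were centred on their medians. Atf4 and Asns did not pass, and the sign of their small differences depended on the scaling. Log2 fold changes (log2FC) are given as pLV-SEMA6A minus pLV-Control with their standard error (SE). The test was limma on log2(TPM + 1) with Benjamini-Hochberg adjustment over all 12510 genes, and a gene is said to have risen or fallen at an adjusted p under 0.05. By the same rule 47.6% of all tested genes passed, with 19.5% of all tested genes higher and 28.2% lower (2436 and 3523 genes). Psat1 and Shmt2 also passed a minimum log2 fold change of 0.5, with which a gene is counted here as differentially expressed (DEG), and which 5.12% of all genes did upward and 10.8% downward. The libraries of the 2 groups did not overlap in 8 of the 10 genes, 4 higher and 4 lower, against 58.5% of all tested genes, 23.8% higher and 34.7% lower. An exact permutation test (two-sided) of 3 libraries against 3 cannot go below p = 0.1, and it gave 0.1 for these 8 genes and 0.3 for Atf4 and Asns.

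**Figure D1:**
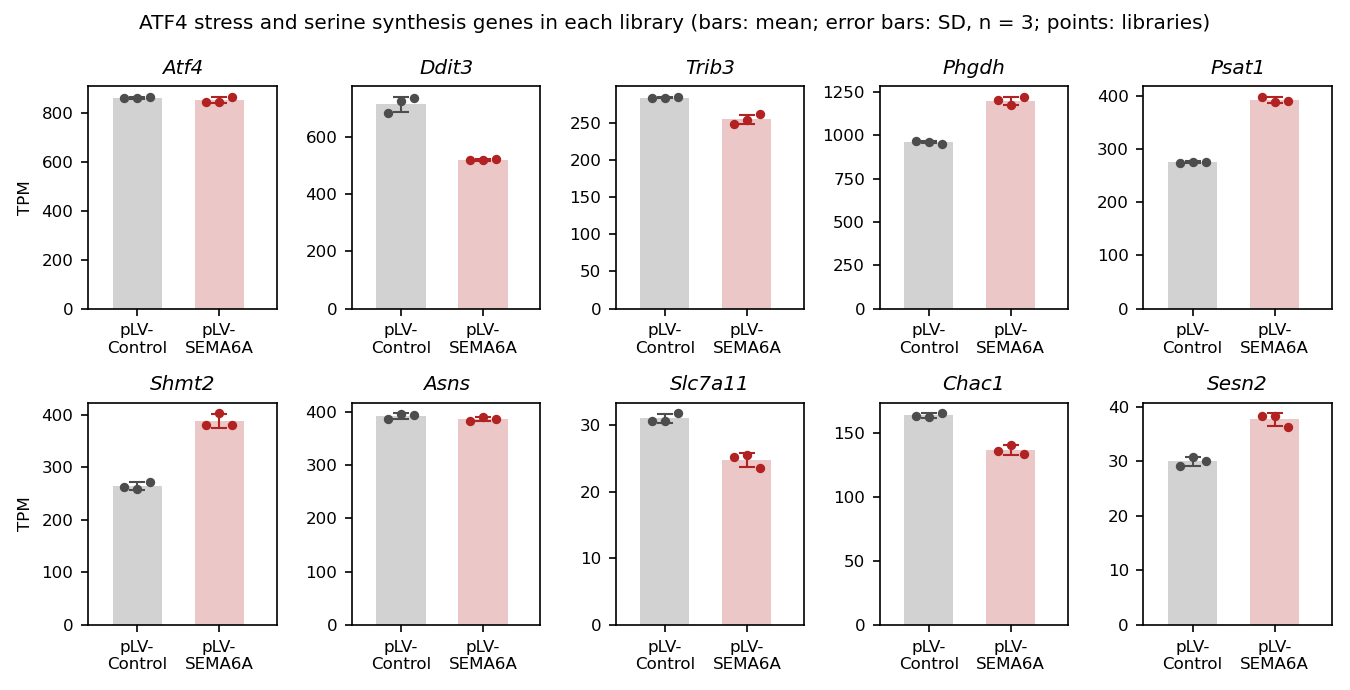
Expression in TPM (vertical axes, each from 0) of the 10 genes in 3 pLV-Control (grey) and 3 pLV-SEMA6A (red) libraries; points are libraries, bars are means and error bars are SD with n = 3. Phgdh, Psat1, Shmt2 and Sesn2 stood higher and Ddit3, Trib3, Slc7a11 and Chac1 lower in every pLV-SEMA6A library, and the libraries of Atf4 and Asns overlapped.

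The scaling of the libraries set where the line between higher and lower fell. Over all tested genes the median log2 fold change was −0.064 with TPM as deposited. With every library centred on its median, this value became 0.029, and 3370 genes were higher and 2474 lower. Under that scaling 6 of the 10 genes were higher and 3 lower. Atf4 and Asns then passed the test upward, with log2 fold changes of 0.077 (limma adjusted p = 0.0227) and 0.071 (limma adjusted p = 0.0340), and Trib3 no longer passed, with −0.064 (limma adjusted p = 0.0995). With a trimmed mean of the ratios between libraries, Atf4 was at 0.054 (limma adjusted p = 0.0855), Asns at 0.048 (limma adjusted p = 0.103) and Trib3 at −0.087 (limma adjusted p = 0.0446). The other 7 genes kept their direction and an adjusted p under 0.05 under each of the 3 scalings.

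**Figure D2:**
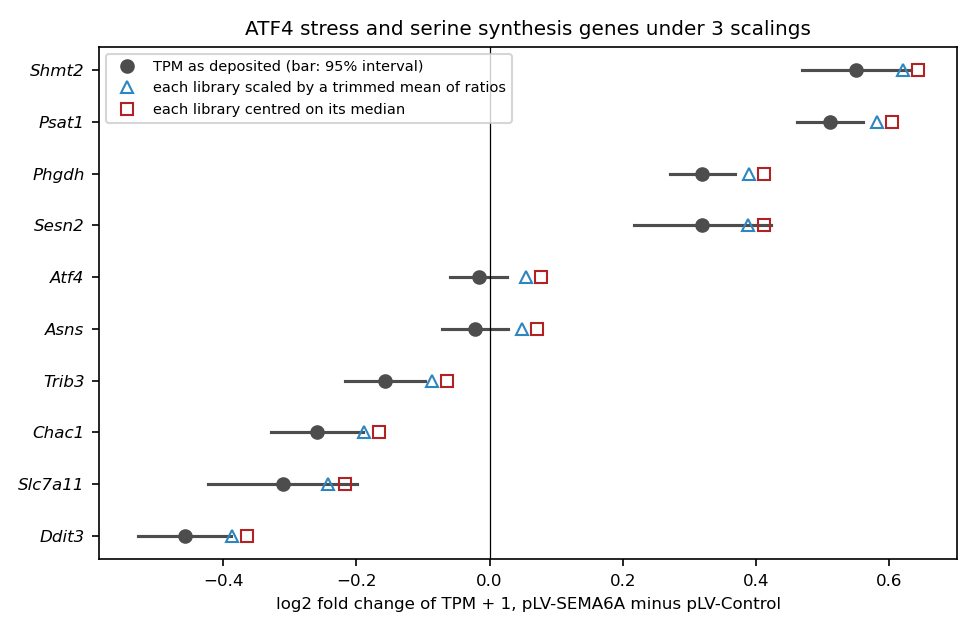
Log2 fold change of TPM + 1, pLV-SEMA6A minus pLV-Control (horizontal axis), of the 10 genes; filled circles are TPM as deposited with the 95% interval from limma, triangles are libraries scaled by a trimmed mean of ratios, and squares are libraries centred on their medians. The order from Ddit3 (−0.46) to Shmt2 (0.55) was that of TPM as deposited, and the 2 genes nearest to 0, Atf4 and Asns, changed sign with the scaling.

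Among the transcription factors and their partner, Atf4 itself (ENSMUSG00000042406, chromosome 15) had 858, 859 and 866 TPM in the pLV-Control libraries, against 846, 844 and 865 TPM in those with SEMA6A. The highest pLV-SEMA6A library lay among the pLV-Control libraries. The log2 fold change was −0.016 (SE 0.018, limma adjusted p = 0.479), with a 95% interval from −0.059 to 0.026, and its sign turned under both other scalings. Atf4 mRNA was abundant in both groups, above 98.6% of the tested genes in pLV-Control.

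Ddit3 (ENSMUSG00000025408, chromosome 10) encodes CHOP, a transcription factor that ATF4 induces and that is linked to cell death under long stress. It had 685, 724.5 and 735 TPM in the pLV-Control libraries, against 518, 519 and 522 TPM in those with SEMA6A. The 3 pLV-SEMA6A libraries lay close together, all below the lowest pLV-Control library. Its log2 fold change of −0.46 (SE 0.029, limma adjusted p = 6.05e-05) was the lowest of the 10. The symbol Ddit3 names a second identifier in the table, ENSMUSG00000116429, which was listed at 0 in all 6 libraries and was not used. Of the 31-base stretches of the Ddit3 transcripts in GENCODE M21, 6.78% also occur in other genes, mainly in Mars1, whose exons overlap it on the other strand, and in the second Ddit3 identifier. Mars1 had means of 129 and 123 TPM without and with SEMA6A and did not pass the test (log2 fold change −0.074, limma adjusted p = 0.425).

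Trib3 (ENSMUSG00000032715, chromosome 2), a pseudokinase induced by ATF4 and CHOP that in turn restrains them, had 284, 283 and 285 TPM in the pLV-Control libraries, against 249, 254 and 261 TPM in those with SEMA6A. The groups did not overlap. The log2 fold change was −0.16 (SE 0.025, limma adjusted p = 0.00262), the smallest change among the 8 genes that passed, and it did not pass after median centring. Its relative Trib1, named after its values were seen, was low and did not pass, at 5.13 ± 0.19 and 5.26 ± 0.47 TPM (SD, n = 3 each).

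The genes of serine synthesis rose together with Shmt2. Phgdh (ENSMUSG00000053398, chromosome 3), which encodes the enzyme of the first step from 3-phosphoglycerate, had 968, 963 and 952 TPM in the pLV-Control libraries, against 1206, 1174 and 1220.1 TPM in those with SEMA6A. It had the highest level of the 10 genes in both groups. The log2 fold change was 0.32 (SE 0.020, limma adjusted p = 5.77e-05). Of the 31-base stretches of Phgdh, 56.3% also occur in other genes, mainly Gm7901, Gm9347 and Gm8341. These were at a mean of at most 0.63 TPM in either group, and how reads were shared out among them is not given in the sources used here, so the level of Phgdh is uncertain.

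Psat1 (ENSMUSG00000024640, chromosome 19), the aminotransferase of the next step, had 273, 277 and 277 TPM in the pLV-Control libraries, against 399, 389 and 392 TPM in those with SEMA6A. Every pLV-SEMA6A library stood more than 100 TPM above every pLV-Control library. The log2 fold change was 0.51 (SE 0.021, limma adjusted p = 1.06e-05), and it stayed between 0.50 and 0.52 when each library was left out in turn.
Psph, the phosphatase that releases serine in the last step, was not among the 10 and was singled out after its values were seen. It had 197, 185 and 174 TPM in the pLV-Control libraries, against 281, 317 and 282 TPM in those with SEMA6A. Its log2 fold change was 0.66 (SE 0.062, limma adjusted p = 0.000309). The transcripts of all 3 enzymes of the route thus rose, though the level of Phgdh is uncertain, as described above.

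Shmt2 (ENSMUSG00000025403, chromosome 10), the mitochondrial enzyme that splits serine into glycine and a one-carbon unit, had 263, 258 and 273 TPM in the pLV-Control libraries, against 381, 403 and 380 TPM in those with SEMA6A. The log2 fold change of 0.55 (SE 0.034, limma adjusted p = 5.19e-05) was the highest of the 10. Its exons overlap those of Ndufa4l2 on the other strand, which was at a mean of at most 0.85 TPM in either group. Other genes share 3.61% of its 31-base stretches and 2.18% of those of Psat1.

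Asns (ENSMUSG00000029752, chromosome 6), which makes asparagine from aspartate with glutamine as nitrogen donor, had 386, 396 and 394 TPM in the pLV-Control libraries, against 382, 389 and 386 TPM in those with SEMA6A. The groups overlapped. The log2 fold change was −0.022 (SE 0.020, limma adjusted p = 0.411), with a 95% interval from −0.071 to 0.027. The sign of Asns, a classical ATF4 target, turned under both other scalings as it did for Atf4.

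The remaining genes act on cystine, glutathione and nutrient sensing. Slc7a11 (ENSMUSG00000027737, chromosome 3), the light chain of the cystine and glutamate exchanger, had 30.5, 30.7 and 31.8 TPM in the pLV-Control libraries, against 25.3, 25.6 and 23.6 TPM in those with SEMA6A. It fell by 0.31 on the log2 scale (SE 0.047, limma adjusted p = 0.00211). Its heavy chain partner Slc3a2 went the other way, from 354 ± 6.19 to 412 ± 7.41 TPM (mean ± SD, n = 3 each), with a log2FC of 0.22 (limma adjusted p = 0.000567). Other genes share 4.27% of the 31-base stretches of Slc7a11, among them Madd, Tuba1c and Tuba1b. Madd had means of 7.79 and 9.09 TPM without and with SEMA6A, Tuba1c had 224 and 322 TPM, and Tuba1b had 680.2 and 936 TPM. How reads were shared out among these genes is not given in the sources used here, so the level of Slc7a11 is uncertain in that part.

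Chac1 (ENSMUSG00000027313, chromosome 2), an enzyme that degrades glutathione and is induced downstream of ATF4, had 163, 162 and 165 TPM in the pLV-Control libraries, against 136, 141 and 133 TPM in those with SEMA6A. Its log2 fold change was −0.26 (SE 0.029, limma adjusted p = 0.000609). Sesn2 (ENSMUSG00000028893, chromosome 4), a leucine sensor that restrains mTORC1, had 29.1, 30.8 and 30.04 TPM in the pLV-Control libraries, against 38.3, 38.4 and 36.3 TPM in those with SEMA6A. Its log2 fold change was 0.32 (SE 0.043, limma adjusted p = 0.00130), and it was the only gene of this group of 3 that rose. None of the 31-base stretches of Atf4, Trib3, Asns, Chac1 or Sesn2 occur in other genes of GENCODE M21.

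The levels of the 10 genes spanned from Sesn2 to Phgdh in pLV-Control (29.98 and 961 TPM), and the order changed in the middle of that range. In pLV-Control the order from high to low was Phgdh, Atf4, Ddit3, Asns, Trib3, Psat1, Shmt2, Chac1, Slc7a11 and Sesn2. The places of Phgdh and Slc7a11 rest on levels described above as uncertain, for Slc7a11 in part. Neighbours did not overlap between libraries except for Slc7a11 and Sesn2. In pLV-SEMA6A, Psat1 (393 ± 5.32 TPM), Shmt2 (388 ± 13.1 TPM) and Asns (386 ± 3.58 TPM; SD, n = 3 each) overlapped with each other and stood above Trib3 (255 ± 6.29 TPM). Sesn2 stood above Slc7a11 without overlap. The SD between libraries of a group was at most 4.34% of the mean in any of the 10 genes.

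A ratio of 2 genes within a library does not depend on how libraries are scaled, so the ratio of each gene to Atf4 was computed, a measure chosen after the values were seen. The ratio of Ddit3 to Atf4 was 0.798, 0.843 and 0.848 in pLV-Control and 0.612, 0.615 and 0.604 in pLV-SEMA6A. That of Asns to Atf4 was 0.450, 0.461 and 0.454 in pLV-Control and 0.452, 0.462 and 0.447 in pLV-SEMA6A, so the 2 genes kept nearly the same proportion in all 6 libraries. The ratio of Trib3 to Atf4 was 0.329 to 0.331 in pLV-Control and 0.294 to 0.302 in pLV-SEMA6A, so Trib3 was lower relative to Atf4 in every pLV-SEMA6A library. The ratio of Psat1 to Trib3 was 0.970 ± 0.0079 in pLV-Control and 1.54 ± 0.054 in pLV-SEMA6A (SD, n = 3 each). The ratio of Phgdh to Ddit3 was 1.30 to 1.41 in pLV-Control and 2.26 to 2.34 in pLV-SEMA6A, and that of Sesn2 to Slc7a11 had means of 0.968 and 1.52. Each of these pairs, also chosen after the values were seen, sets a gene that rose over one that fell. Their separation thus follows from the calls above. Psat1 to Shmt2, which both rose, had means of 1.04 and 1.01, and the groups overlapped. Trib3 to Chac1, which both fell, had means of 1.74 and 1.87 without overlap. The ratios to Atf4 show that the genes changed unequally, and do not show which of them stayed constant.

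**Figure D3:**
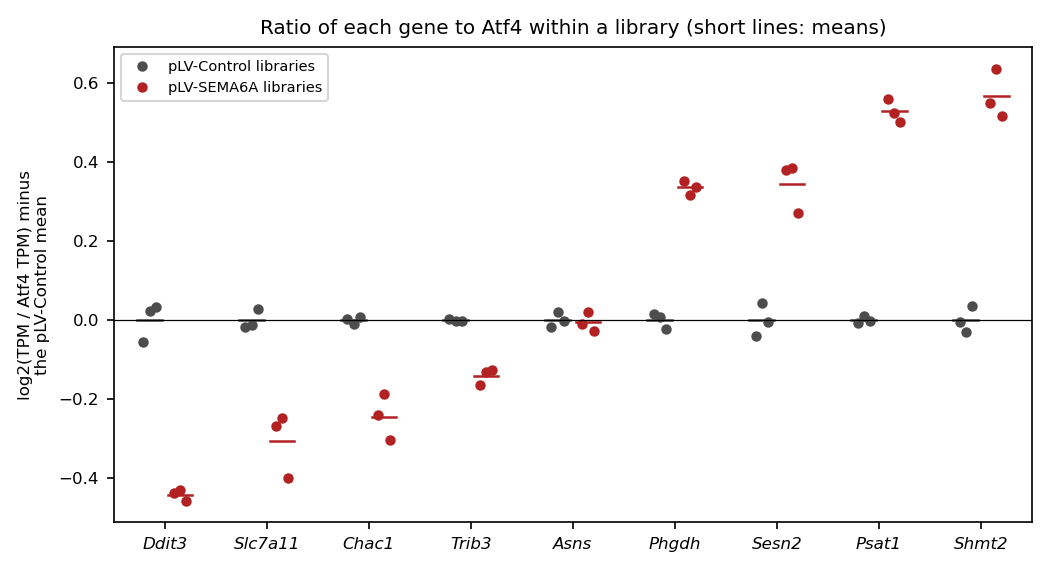
Log2 ratio of the TPM of 9 genes to that of Atf4 in the same library, minus the pLV-Control mean (vertical axis), for 3 pLV-Control (grey) and 3 pLV-SEMA6A (red) libraries; short lines are means. The mean difference ran from −0.44 for Ddit3 to 0.57 for Shmt2, and the libraries overlapped for Asns only.

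Upstream of ATF4, the kinase genes Eif2ak2 and Eif2ak3 fell and the phosphatase subunit Ppp1r15a rose. Ppp1r15a is also among the genes that ATF4 is known to induce, and these mRNA levels do not measure phosphorylation of eIF2alpha. Of 16 genes for these kinases, for eIF2, eIF2B and the phosphatase, 6 rose, 4 fell and 6 did not pass, and the median log2FC was 0.025 (8 higher and 3 lower after median centring). Leaving out 1 library moved this median between 0.0081 and 0.039, by over 1.5 times for each pLV-Control library. Eif2ak2, the kinase PKR that senses viral RNA and is itself induced by interferon, fell from 51.8 ± 1.62 to 24.2 ± 0.62 TPM (mean ± SD, n = 3 each), with a log2FC of −1.06 (limma adjusted p = 9.06e-06). Eif2ak3, the kinase PERK of the endoplasmic reticulum, fell from 7.24 ± 0.48 to 4.98 ± 0.54 TPM (mean ± SD, n = 3 each), with a log2FC of −0.46. The 2 other kinases, which fall outside the naming rule, had log2 fold changes of −0.33 (Eif2ak4 or GCN2, limma adjusted p = 0.0153, and 0.0503 after median centring) and −0.17 (Eif2ak1 or HRI, limma adjusted p = 0.0559). Ppp1r15a, the stress-induced phosphatase subunit GADD34, rose from 170.4 ± 7.83 to 240.2 ± 16.8 TPM (mean ± SD, n = 3 each), with a log2FC of 0.49. The most abundant gene of the list, Eif2s2, did not pass with TPM as deposited (0.020, limma adjusted p = 0.520) and was higher after median centring (limma adjusted p = 0.0115).

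Of 12 tested genes for ATF4 partners and related basic leucine zipper factors, 5 rose and 2 fell, and the median log2FC was 0.16 (7 and 1 after median centring). Atf3 had 42.2, 40.6 and 38.8 TPM in the pLV-Control libraries, against 75.8, 71.4 and 70.5 TPM in those with SEMA6A, with a log2FC of 0.82 (SE 0.047, limma adjusted p = 4.03e-05). Atf5, which like ATF4 is translated under eIF2alpha phosphorylation, had 330, 338 and 334 TPM in the pLV-Control libraries, against 593, 602 and 576 TPM in those with SEMA6A, with a log2FC of 0.82 (SE 0.024, limma adjusted p = 2.91e-06). Both factors were higher in every pLV-SEMA6A library, while Atf4 overlapped. Batf3 fell from 4.49 ± 1.38 to 2.47 ± 0.43 TPM (SD, n = 3 each, limma adjusted p = 0.0364), a call lost under both other scalings. It also lost the threshold when any library other than pLV-Control replicate 1 was left out, with adjusted p between 0.0318 and 0.101 over the 6 fits, and 1 gene of the list then fell in place of 2.

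In a list of further genes that ATF4 is known to induce, more rose than fell. Like the other lists, it was written with earlier results of these data known, so its counts are not independent of them. Of 28 tested, 15 rose, 4 fell and 9 did not pass, and the median log2FC was 0.18 (19 and 3 after median centring). Among all tested genes 19.5% were higher and 28.2% lower. Of the 10 genes above, which are not in this list, Phgdh, Psat1, Shmt2 and Sesn2 rose, while Ddit3, Trib3, Slc7a11 and Chac1 fell. The list shares Atf3, Atf5, Jdp2 and Cebpg with the one above and Ppp1r15a with the one before, and 8 more of its genes stand in other lists. Cth, the enzyme that makes cysteine from cystathionine, had 42.6, 43.8 and 42.6 TPM in the pLV-Control libraries, against 93.6, 94.3 and 91.2 TPM in those with SEMA6A. Its log2 fold change of 1.10 (SE 0.031, limma adjusted p = 2.66e-06) was the largest of the list. Sqstm1, an autophagy receptor that NRF2 induces as well, fell from 1619 ± 12.3 to 986.9 ± 3.83 TPM (mean ± SD, n = 3 each), with a log2FC of −0.71 (limma adjusted p = 8.18e-07).

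The genes of one-carbon and glycine metabolism had the highest median of the lists with all 6 libraries. Of 22 tested, 12 rose, 3 fell and 7 did not pass, and the median log2FC was 0.22 (15 and 1 after median centring), against −0.064 for all tested genes. When any library other than pLV-SEMA6A replicate 3 was left out, 1 or 2 genes of the list fell in place of 3. Tyms, the thymidylate synthase, rose from 44.2 ± 2.23 to 78.4 ± 5.04 TPM (mean ± SD, n = 3 each), with a log2FC of 0.81. Mthfd1l, which releases formate in mitochondria, rose from 46.3 ± 1.60 to 74.7 ± 0.47 TPM (mean ± SD, n = 3 each), with a log2FC of 0.68. Mthfd2, the ATF4 target that works next to Shmt2 in mitochondria and was the most abundant of the list, rose only from 244.7 ± 1.76 to 267 ± 4.51 TPM (mean ± SD, n = 3 each), with a log2FC of 0.12 (limma adjusted p = 0.00462). Amt, a subunit of the glycine cleavage system, fell from 5.06 ± 0.35 to 2.60 ± 0.43 TPM (SD, n = 3 each).

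**Figure D4:**
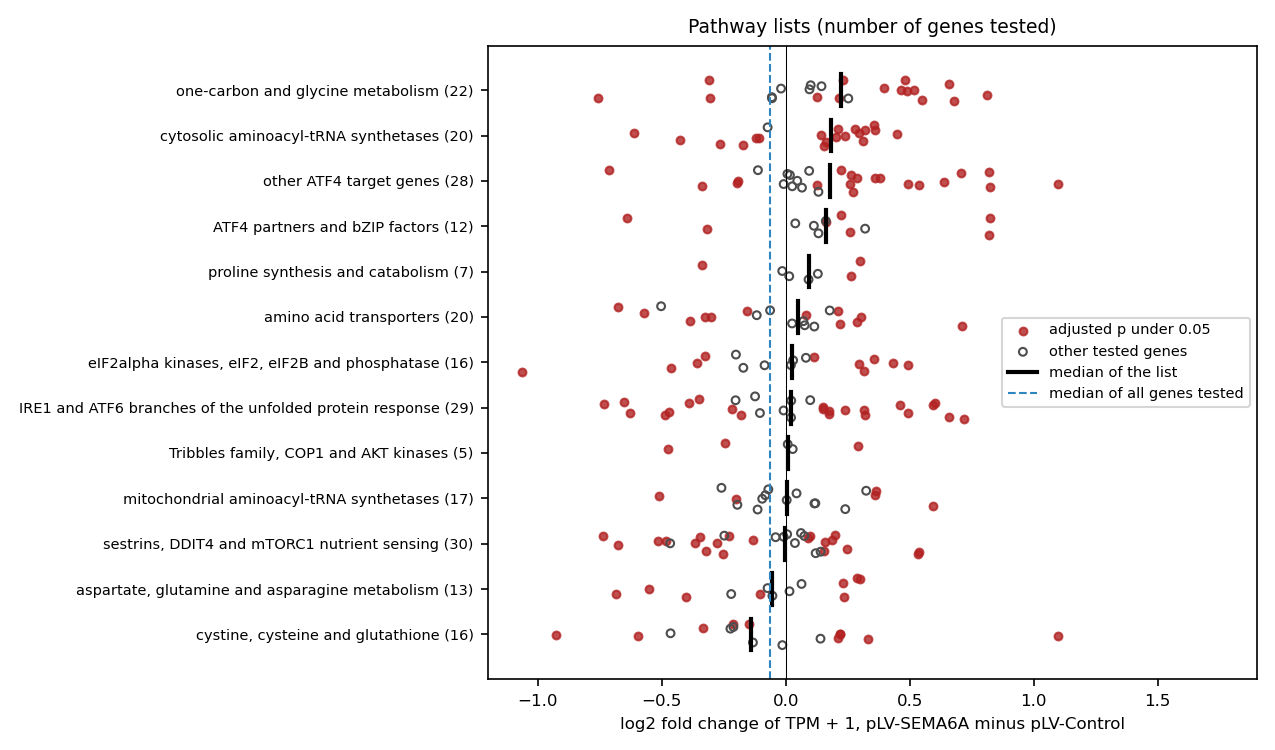
Log2 fold change of TPM + 1, pLV-SEMA6A minus pLV-Control (horizontal axis), of the tested genes of 13 pathway lists; filled points have an adjusted p under 0.05 from limma, open points do not, black bars are list medians and the dashed line is the median of all tested genes (−0.064). List medians ran from −0.14 for cystine, cysteine and glutathione (−0.061 without pLV-Control replicate 1) to 0.22 for one-carbon and glycine metabolism, and some genes stand in more than 1 list.

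Cytosolic aminoacyl-tRNA synthetases, which load amino acids onto tRNAs and include many ATF4 targets, mostly rose by small amounts. Of 20 tested, 13 rose, 6 fell and 1 did not pass, and the median log2FC was 0.18 (13 and 3 after median centring). Nars, the asparaginyl enzyme and the most abundant, rose from 1043 ± 17.0 to 1339.5 ± 19.9 TPM (mean ± SD, n = 3 each), with a log2FC of 0.36. Hars had the largest rise, 0.45. Qars (−0.61) and Rars (−0.43) had the largest falls.

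Amino acid transporters were split, with 6 that rose, 6 that fell and 8 that did not pass among 20 tested (7 and 3 after median centring). Slc7a5, the large neutral amino acid carrier that pairs with Slc3a2, rose from 171 ± 3.13 to 281 ± 8.78 TPM (mean ± SD, n = 3 each), with a log2FC of 0.71 (limma adjusted p = 1.39e-05). It was opposite in direction to Slc7a11, another light chain that pairs with Slc3a2. Slc38a9 (−0.68) and Slc38a10 (−0.57) had the largest falls.

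Of 16 tested genes of cystine, cysteine and glutathione metabolism, 5 rose and 5 fell, and the median log2 fold change was −0.14 (6 and 3 after median centring), and −0.061 without pLV-Control replicate 1. Beside Cth, which stands in this list too, Abcc1, an exporter of glutathione conjugates, fell from 79.9 ± 1.71 to 41.6 ± 1.18 TPM (mean ± SD, n = 3 each), with a log2FC of −0.93. Ggct, which like Chac1 cleaves gamma-glutamyl bonds, fell by 0.60 on the log2 scale. Gpx4, which uses glutathione to reduce lipid peroxides and was the most abundant, rose by a log2 fold change of 0.21.

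Among the other branches of the unfolded protein response, IRE1 and ATF6, 13 of 29 tested genes rose, 9 fell and 7 did not pass, and the median log2FC was 0.021 (15 and 8 after median centring). This median lay between 0.013 and 0.065 when 1 library was left out, and moved by over 1.5 times without pLV-Control replicate 1 or 3 or pLV-SEMA6A replicate 3. Hspa5, the chaperone BiP and the most abundant of the list, had 1909, 1892 and 1913 TPM in the pLV-Control libraries, against 1351, 1380.5 and 1342 TPM in those with SEMA6A. Its log2 fold change was −0.49 (SE 0.017, limma adjusted p = 5.98e-06). Edem2 fell by 0.73 on the log2 scale, while the folding factors Creld2 (0.72) and Pdia3 (0.66) rose. Ern1, which encodes IRE1 itself, and Xbp1, whose mRNA it splices, were singled out after their values were seen and had log2 fold changes of −0.63 (limma adjusted p = 0.000518) and −0.65 (limma adjusted p = 5.63e-05). In the other branch, Atf6, also named after its values were seen, rose by a log2 fold change of 0.17 (limma adjusted p = 0.00320). Its relative Atf6b did not pass (0.098, limma adjusted p = 0.202).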

How the data were processed

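The file that the authors deposited holds TPM per library, 3 of each group, and pooled group means that were left out. The header names no unit, and TPM was inferred from the column totals and from RSEM in the notes. The submitters' processing notes name Bowtie2, HISAT, RSEM and the build mm39, without versions, roles or order, and the annotation is not given in the sources used here. The method that the supplement names for the comparison needs read counts, which TPM does not hold, so it was not run, and depth and counting error are unknown.

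The 12510 genes averaging 1 TPM or more were fitted as log2(TPM + 1) by limma 3.58.1 (R 4.3.3, trend option, group as sole term), and p-values were adjusted over all of them by the Benjamini-Hochberg method. Fold changes on this scale understate the change of low genes. The steps were also run on simulated data in which few genes changed and the libraries did not differ in scaling. That run does not bear on the choice of scaling.

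The 10 genes and all lists were chosen with earlier results of these data known. From each pathway list the text names the 3 largest changes among genes with an adjusted p under 0.05 and the most abundant gene; others are marked where named. The results of 2 further genes are not reported here. Chromosomes and shared 31-base stretches come from GENCODE M21 (GRCm38), matched by identifier, and promoters from RefSeq (GRCm38.p6), which is not the build of the notes. Alternatives were a pseudocount of 0.1, no filter, the replicate block, 2 other scalings, limma without trend, other minimum fold changes and leaving out each library.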

Additional observations from a re-analysis of the deposited data

How the results depend on the processing

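Over 12 alternatives each, 7 of the 10 genes kept their direction and an adjusted p under 0.05. Trib3 lost the threshold after median centring (−0.064), and Atf4 and Asns changed sign under centring (0.077 and 0.071) and under the trimmed mean of ratios (0.054 and 0.048). Eif4ebp1, a restraint on translation and the most abundant of the nutrient sensing list, lay at −0.0092 and changed sign under both scalings (0.084 and 0.061) and between −0.047 and 0.024 when each library was left out. Of the 221 tested genes of the lists, each counted once, 83 rose and 58 fell; after median centring 102 rose and 37 fell. The number of DEGs over all genes was 1987, and it was 5959 without a minimum fold change and 385 with a minimum of 1. Deviations from the group means did not move together in same-numbered libraries (mean correlation −0.059). With 3 such pairs this cannot show whether the libraries were handled in pairs. With the replicate block 2168 genes were higher and 3059 lower, and the calls of the 10 genes did not change (highest adjusted p among the 8 that passed, 0.0140 for Slc7a11, from limma), while Batf3, Ass1 and Prodh lost the threshold. Leaving out each library in turn gave 2095 to 2141 higher and 2917 to 3146 lower genes. Without read counts, no detection limit can be given.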

Other observations

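Other pathway lists were split between both directions or held few genes that passed. Of 30 tested genes of nutrient sensing by mTORC1, 9 rose and 11 fell, and the list's median log2FC was −0.0021 (10 and 8 after median centring). When any 1 library was left out, 3 to 6 rose and 9 to 11 fell, and the median lay between −0.042 and 0.017. Ddit4, which ATF4 induces and which restrains mTORC1 as Sesn2 does, rose from 54.6 ± 2.84 to 79.6 ± 1.94 TPM (mean ± SD, n = 3 each), with a log2FC of 0.54 (limma adjusted p = 0.000206). Atg13 (−0.74) and Wdr24 (−0.68) fell. The 2 other sestrins, named after their values were seen, did not pass, with log2 fold changes of 0.061 for Sesn1 and −0.47 for Sesn3 (adjusted p = 0.548 and 0.161 from limma). Of 17 mitochondrial aminoacyl-tRNA synthetases 3 rose and 2 fell (5 and 1 after median centring, and 1 fell when replicate 1 or 3 of either group was left out), with Rars2 (0.59) and Nars2 (0.36) higher and Wars2 (−0.51) lower. The most abundant of them, Lars2, had a log2 fold change of −0.20 and did not pass (limma adjusted p = 0.218).

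In aspartate, glutamine and asparagine metabolism 4 of 13 tested genes rose and 4 fell (4 and 2 after median centring). When any library other than pLV-SEMA6A replicate 2 was left out, 2 fell. Got2, the most abundant, rose by a log2 fold change of 0.23. Ass1 (−0.69) and Gpt (−0.55) were low, with means of 0.89 and 2.76 TPM in pLV-SEMA6A, and each lost the threshold when any library other than pLV-SEMA6A replicate 2 was left out, with adjusted p up to 0.0759 and 0.0917 from limma. Of 7 genes of proline metabolism 2 rose and 1 fell (4 and 1 after median centring), and 1 rose when replicate 1 or 3 of either group was left out. Aldh18a1 rose by a log2 fold change of 0.26 and Pycr1 fell by 0.34, and Prodh (0.30) lost the threshold without pLV-Control replicate 1 or 3 or pLV-SEMA6A replicate 1 or 3 (adjusted p up to 0.0739 from limma). Among the relatives and partners of Trib3, Cop1 (−0.25) fell and Akt1 (0.29) rose. Cop1 lost the threshold without pLV-Control replicate 2 or 3 or pLV-SEMA6A replicate 3, with adjusted p up to 0.0741 from limma, and under both other scalings.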
